A study of Mus musculus with 9 samples.

Results

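The genes examined here are 36 genes of DNA replication and mitosis, taken from a fixed list of symbols and found in the symbol column of the deposited count table, 1 row each, among 39253 genes. They were measured by bulk RNA sequencing in mouse CD4+ T cells labelled as collected on day 9 of EAE (experimental autoimmune encephalomyelitis, an autoimmune inflammation of brain and spinal cord that is raised in mice as a multiple sclerosis model). The 9 libraries are 4 with the genotype label wildtype and 5 with the label ERα KO, a knockout of estrogen receptor alpha. Batch 1 holds wildtype replicates 1 and 2 and knockout replicates 1, 2 and 3, and batch 2 holds wildtype replicates 3 and 4 and knockout replicates 4 and 5. All 9 share the cell type, the disease and the day. The labels do not give the tissue the cells came from, the cells in which the receptor is deleted, the sex or age of the mice, or whether the samples are separate animals, so the p-values speak only for the spread among these libraries. The comparison asked whether transcripts of cycling cells differed between the genotypes within each batch.

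A T cell that meets its antigen leaves a resting state and divides many times within days, so transcripts of the cell cycle mark the expanding part of a T cell population. Before S phase the MCM helicase is loaded on origins, E2F factors and cyclin E open the way into replication, and PCNA and the enzymes of deoxynucleotide synthesis serve the fork. Cyclin A and cyclin B with Cdk1 then bring the cell into mitosis, where Polo and Aurora kinases, the centromere, the spindle and its checkpoint part the chromosomes, and the anaphase-promoting complex ends the division. The members are taken below in that order: 13 replication genes (the MCM subunits, the clamp and nucleotide supply, and the G1/S regulators) and 23 mitotic genes.

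The promoters of these genes are shown first, because cell cycle promoters are known for short shared elements. Such elements are E2F sites in replication genes and, in mitotic genes, the cell cycle genes homology region (CHR), which is bound by the MuvB complexes, together with CCAAT boxes bound by NF-Y. Windows of 300 bases, from 250 before to 50 after the annotated start, were taken from RefSeq (GRCm38.p6) for the 30 members matched by gene identifier, of which 1, Mcm7, had more than 1 window. Both strands were searched for TTTCCCGC, TTTCGCGC, TTTGCCGC and TTTGGCGC as E2F words, for TTTGAA and TTCGAA as CHR words, and for CCAAT. The E2F words can overlap each other on opposite strands, and TTCGAA is its own reverse complement. A CHR word lay in 14 of 19 mitotic genes (73.7%) and in 2 of 11 replication genes (18.2%, Mcm2 and Mcm7), against 19.2% of 32851 windows in the table. An E2F word lay in 4 of 11 replication genes (36.4%), which were Mcm3, Mcm5, Mcm6 and Mcm7, and in 1 of 19 mitotic genes (Cdk1), against 2.26% of all windows. CCAAT was present in 16 of 19 mitotic and 7 of 11 replication genes, against 37.4%. A CHR word together with CCAAT was found in 14 of 19 mitotic genes, and in 7.52% of all windows. These are letter matches and not measured binding, and their relation to the levels below was not tested.

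Stretches of 7 of these promoters follow, 5′ to 3′ on the gene's strand and ending at or before the base ahead of the annotated start, with every matched word in capitals. Mcm5 (chr8:75109349-75109448, plus strand) and Mcm6 (chr1:128359706-128359820, minus strand) show the E2F words of the helicase genes, where a forward and a reverse word overlap. Cdk1 (chr10:69352913-69353047, minus strand) carries all 3 kinds of word. Mki67 (chr7:135716460-135716569, minus strand), Kif11 (chr19:37376322-37376381, plus strand), Cdc20 (chr4:118437344-118437403, minus strand) and Ube2c (chr2:164769834-164769928, plus strand) show the CCAAT and CHR pairs of the mitotic genes. The coordinates are of GRCm38.p6, while the submitters' processing notes name GRCm39.
Mcm5: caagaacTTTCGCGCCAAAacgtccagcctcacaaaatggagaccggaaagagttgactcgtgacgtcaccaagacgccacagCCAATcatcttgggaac
Mcm6: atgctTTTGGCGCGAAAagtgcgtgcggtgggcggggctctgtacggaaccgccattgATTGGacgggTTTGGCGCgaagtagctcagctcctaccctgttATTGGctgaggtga
Cdk1: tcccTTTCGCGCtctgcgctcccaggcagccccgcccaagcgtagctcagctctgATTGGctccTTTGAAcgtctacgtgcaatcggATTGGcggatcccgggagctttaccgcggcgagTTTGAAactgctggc
Mki67: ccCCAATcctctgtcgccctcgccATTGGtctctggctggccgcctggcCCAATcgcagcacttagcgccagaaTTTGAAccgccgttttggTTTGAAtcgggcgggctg
Kif11: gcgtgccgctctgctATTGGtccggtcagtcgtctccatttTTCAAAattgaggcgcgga
Cdc20: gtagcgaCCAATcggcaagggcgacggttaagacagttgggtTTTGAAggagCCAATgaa
Ube2c: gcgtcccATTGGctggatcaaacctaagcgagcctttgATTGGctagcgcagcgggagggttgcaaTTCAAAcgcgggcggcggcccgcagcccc

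The libraries differed in ways whose part in the levels of these genes was not tested. Totals were 4926347 to 11296593 counts in batch 1 and 45013017 to 69844721 in batch 2. The member with the fewest counts in any library was Aurkb in wildtype replicate 2, with 11 counts (95% exact Poisson interval 5.49 to 19.7, counting error only). Counts of sensory receptor genes, which T cells do not use, made up 0.0574% to 0.255% of batch 1 libraries and at most 0.0037% of batch 2 libraries. Esr1, the targeted gene, was at 1.45 and 1.69 CPM (the gene's count scaled by the total count of its library) in wildtype and at 0.143 and 0.256 CPM in knockout libraries of batch 2. In batch 1 it stood at 4.87 and 16.2 CPM (wildtype) against 9.58, 6.31 and 13 CPM (knockout), so there it did not separate the labels. Knockout replicate 3 had transcripts of a Y-linked gene (Ddx3y, 55.4 CPM), as did all batch 2 libraries, and the other 4 batch 1 libraries had 0 counts of it. The X-linked Xist was at 1745 to 2680 CPM in those 4 libraries, at 30.4 CPM in knockout replicate 3 and at most 0.289 CPM in batch 2. In batch 1 a library with Ddx3y was thus present among the knockout libraries only, and its part in that comparison was not tested. The 8 CD4+ T cell markers summed to 3262 to 4828 CPM in every library. In batch 2 these sums were lower in wildtype (4206 and 4572 CPM) than in knockout libraries (4819 and 4828 CPM).

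Within batch 2, wildtype replicate 3 stood apart in markers of other blood lineages. The 4 erythroid markers summed to 878 CPM in it, against 33.2, 47.1 and 41.3 CPM in the other batch 2 libraries and 2.44 to 19.2 CPM in batch 1. Alas2, which starts heme synthesis in red cell precursors, was at 434 CPM against 17 to 23.2 CPM in the other batch 2 libraries. The 7 neutrophil markers summed to 204 CPM, against 22.7, 5.28 and 8.51 CPM, and included Mpo (41.5 CPM against at most 1.3) and Elane (14.6 CPM against at most 0.238, and 0 in wildtype replicate 4), granule enzymes made in immature cells. The 5 B cell markers summed to 11.7 CPM, against 6.13 to 12.4 CPM in the other batch 2 libraries. Further marker sets were higher in both wildtype than in both knockout libraries of batch 2, as the members were. Monocyte and macrophage markers summed to 76.9 and 95.8 against 51.3 and 55.5 CPM, and dendritic cell markers to 5.94 and 9.26 against 2.61 and 3.66 CPM. Plasma cell markers summed to 106 and 77.3 against 63.9 and 62.0 CPM. Thymocyte markers summed to 4.32 and 3.64 against 3.02 and 2.25 CPM, and CD8 T cell markers to 11.2 and 11.5 against 10.6 and 10.9 CPM. Most of these last 3 sums came from single genes, which were Xbp1, Dntt and Cd8b1. Some markers went the other way, or overlapped, in wildtype replicate 4. Jchain (plasma cell) had 2.82 CPM there against 5.79 and 4.63 CPM in the knockout libraries. Zbtb46 (dendritic cell) had 0.511 against 0.907 and 2.01 CPM. Lyz2 (monocyte and macrophage), at 4.87 CPM, lay between the knockout libraries (6.39 and 4.58 CPM). Dividing cells of other lineages also express replication and mitosis genes, and the part of these markers in the results below was not tested. In batch 1 the neutrophil markers summed to 302 to 1096 CPM, above any batch 2 library.

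**Figure D1:**
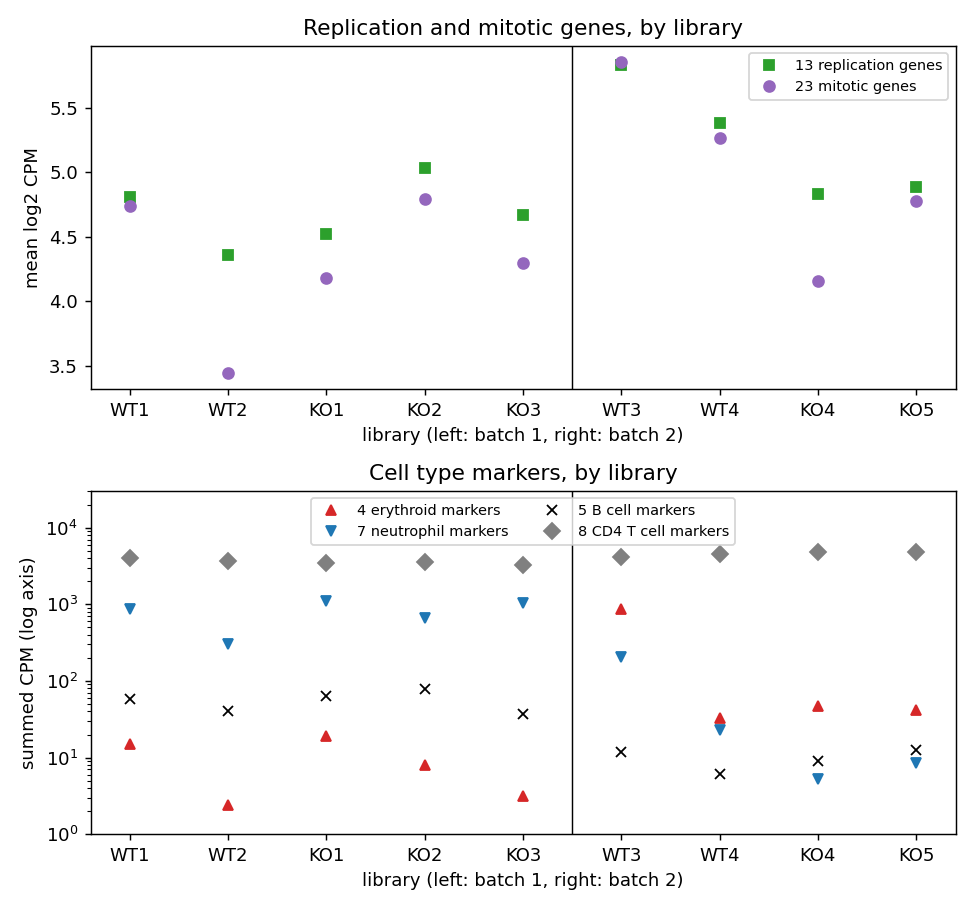
The upper plot gives the mean log2 CPM of the 13 replication and 23 mitotic genes in each library, and the lower plot the summed CPM of 4 sets of cell type markers on a log axis. WT is wildtype, KO is knockout, and the vertical line parts batch 1 from batch 2. WT3 was highest for the replication and mitotic genes (5.83 and 5.86) and for the erythroid markers (878 CPM).

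In batch 2 the replication and mitosis genes had lower levels in the knockout libraries. The log2 fold change of knockout against wildtype was negative for 36 of 36 members, with a median of -1.09 and a range of -2.07 to -0.25, where 52.2% of the 15910 genes tested were negative and their median was -0.02. For 34 of 36 members both knockout libraries lay below both wildtype libraries, against 20.5% of the genes tested, and the exceptions were Mcm2 and Mcm4. No member passed the adjustment over all genes in edgeR (0 of 36, with 0% of all genes called, adjusted p from 0.618 to 0.757). At an unadjusted p under 0.05 there were 26 of 36, all lower, against 4.97% of the genes tested that were lower at that p. Ranked by CPM, wildtype replicate 3 was highest for 34 members and wildtype replicate 4 second for 32, and the full order of wildtype replicate 3, wildtype replicate 4, knockout replicate 5, knockout replicate 4 held for 28. Ranks here and below were counted for the members only, so how common they are among all genes is not known. In bulk RNA a smaller share of cycling cells and less of these transcripts per cycling cell cannot be told apart.

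**Figure D2:**
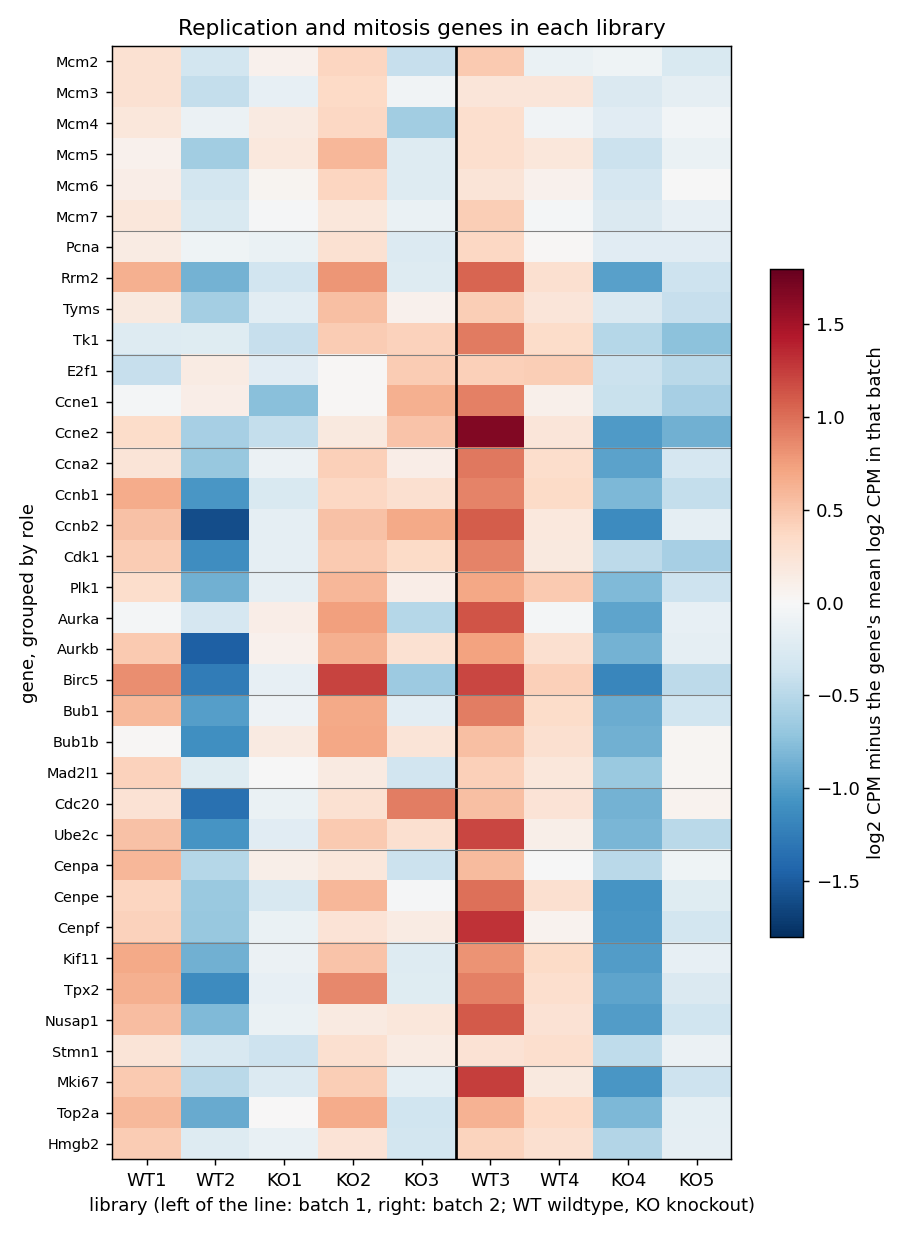
Each row is a gene, grouped by role, and each column a library. The colour is the log2 CPM minus the mean log2 CPM of that gene in that batch. In batch 2, right of the line, WT3 ranks highest for 34 of 36 genes, and in batch 1 WT2 ranks lowest for 26.

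In the values that follow, libraries stand in the order of their replicate numbers, and values are levels in CPM unless a log2 fold change is named. The MCM genes, which encode the replicative helicase, had the smallest differences of the role groups in batch 2: over 6 genes the log2 fold change had a median of -0.40, from -0.50 to -0.25. Mcm5 stood at 59.8 and 56.1 CPM (wildtype) against 37.0 and 44.5 CPM (knockout) in batch 2, and at 34.2 and 20.9 against 37.0, 48.9 and 27.6 CPM in batch 1. The genotypes did not overlap in batch 2 and did in batch 1. Mcm2 had 94.6 and 63.0 CPM against 65.0 and 56.8 CPM in batch 2, where wildtype replicate 4 lay below knockout replicate 4. Its batch 1 levels were 57.5 and 37.6 against 50, 61.9 and 35.7 CPM. Mcm4 also overlapped, with 139 and 107 CPM against 97.9 and 109 CPM in batch 2, and had the smallest log2 fold change of the 36 there, -0.25 ± 0.17 (SE). In batch 1 Mcm4 ranged from 83.6 to 104 CPM in wildtype and from 58.2 to 117 CPM in knockout libraries.

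Pcna, the sliding clamp of the replication fork, was at 193 and 152 CPM (wildtype) against 129.9 and 130.1 CPM (knockout) in batch 2. In batch 1 it was at 124 and 106 against 103, 135 and 94.5 CPM. Enzymes that make deoxynucleotides had larger differences than the clamp in batch 2. Rrm2, the S phase subunit of ribonucleotide reductase, had 138 and 82.1 CPM against 34.1 and 51.9 CPM, a log2 fold change of -1.36 ± 0.36 (SE). In batch 1 it had 35.9 and 12.8 against 18.1, 39.8 and 19.5 CPM. Tk1, the cytosolic thymidine kinase, was at 21.0 and 13.8 CPM against 7.68 and 6.59 CPM in batch 2, and at 6.20 and 6.29 against 5.45, 9.98 and 9.67 CPM in batch 1. Its batch 2 log2 fold change was -1.29 ± 0.29 (SE). Tyms, thymidylate synthase, had 31.2 and 26.8 against 19.2 and 17.3 CPM in batch 2, and 18.2 and 10.6 against 14.2, 23.5 and 17 CPM in batch 1. For these enzymes and Pcna the genotypes were apart in batch 2 and overlapped in batch 1.

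Among the G1/S regulators, Ccne2 had the largest log2 fold change of the 36 members in batch 2, -2.07 ± 0.54 (SE). This cyclin E gene, a partner of Cdk2 at S phase entry, stood at 29.1 and 10.7 CPM (wildtype) against 4.52 and 5.03 CPM (knockout). The wildtype replicates differed from each other by 2.71-fold, the widest such gap among the members, and wildtype replicate 4 was 2.13-fold above the higher knockout library. In batch 1 Ccne2 lay between 2.84 and 6.12 CPM in all 5 libraries. Ccne1, the other cyclin E gene, was at 19.6 and 11.1 against 7.89 and 6.92 CPM in batch 2, and at 7.88 and 8.73 against 4.79, 8.15 and 12.6 CPM in batch 1. E2f1, a transcription factor that drives S phase genes, had 8.28 and 8.35 CPM against 4.72 and 4.38 CPM in batch 2. Here the wildtype libraries were nearly equal (ratio 0.991), and the log2 fold change was -0.87 ± 0.25 (SE). In batch 1 E2f1 had 5.49 and 8.12 CPM against 6.38, 7.46 and 10.1 CPM.

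The median log2 fold change in batch 2 was -1.17 for the mitotic and -0.50 for the replication genes, and the ranges overlapped (-1.66 to -0.55 and -2.07 to -0.25). Ccna2, the cyclin of S and G2 phase, was at 126 and 80.9 CPM (wildtype) against 33.2 and 52.6 CPM (knockout). Ccnb1, the cyclin of mitotic entry, had 15.8 and 10.8 against 4.84 and 6.35 CPM, and Cdk1, their kinase, 28.6 and 17.5 against 11.1 and 10.2 CPM. The log2 fold changes of the 3 genes were -1.27 ± 0.34, -1.25 ± 0.31 and -1.12 ± 0.29 (SE). In batch 1 the genotypes overlapped: Ccna2 had 36.6 and 19.5 against 29.1, 42.1 and 33.9 CPM, Ccnb1 12 and 3.65 against 6.25, 9.76 and 9.27 CPM, and Cdk1 12 and 4.06 against 7.85, 12.2 and 11.2 CPM. In each of them wildtype replicate 2 was the lowest of batch 1.

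Plk1, the Polo kinase of mitosis, had the smallest p of the members in batch 2, with a log2 fold change of -1.15 ± 0.21 (SE) and an unadjusted p of 0.00222 (edgeR adjusted p = 0.618). It was at 36.8 and 31.5 CPM (wildtype) against 13.1 and 17.6 CPM (knockout), and at 19.3 and 8.53 against 13.8, 23.4 and 16.8 CPM in batch 1. The batch 2 wildtype libraries differed by 1.17-fold, less than the 1.79-fold step from wildtype replicate 4 to the higher knockout library. Birc5 (survivin), a subunit of the chromosomal passenger complex, had 39.1 and 22.9 against 7.56 and 12.3 CPM in batch 2, and the largest log2 fold change of the mitotic genes, -1.66 ± 0.38 (SE). In batch 1 it ranged widely within both genotypes, with 15.6 and 3.65 against 7.85, 20.2 and 5.52 CPM. Aurkb, the kinase of that complex, had 15.2 and 11.2 against 5.09 and 8.22 CPM in batch 2, and 8.59 and 2.23 against 6.52, 9.64 and 7.5 CPM in batch 1.

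Of the spindle checkpoint genes, Bub1, a kinetochore kinase, was at 19.4 and 12.9 CPM (wildtype) against 5.49 and 7.98 CPM (knockout) in batch 2, and at 12.1 and 4.06 against 7.58, 13 and 7.10 CPM in batch 1. Mad2l1 (MAD2), which holds back the anaphase-promoting complex, had 33.0 and 28.4 against 15.4 and 25.2 CPM in batch 2, and 23.4 and 15 against 17.4, 19.5 and 13.8 CPM in batch 1. Bub1b (BUBR1), part of the same inhibitory complex, had log2 fold changes of opposite sign in the batches. In batch 2 it had 29.6 and 24.7 against 11.2 and 20.8 CPM, and in batch 1 it had 13.2 and 6.09 against 14.6, 21.1 and 15.4 CPM. It was the 1 member whose knockout libraries all lay above the wildtype libraries of batch 1, against 10.9% of the genes tested there, and its log2 fold change of 0.61 ± 0.42 (SE) was the largest of the 36 in that batch. Without wildtype replicate 2 that value was 0.06, and without wildtype replicate 1 it was 1.52.

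Cdc20, the activator of the anaphase-promoting complex, had 24.9 and 20.3 CPM (wildtype) against 9.54 and 18.0 CPM (knockout) in batch 2. Its batch 1 levels were 13 and 4.26 against 9.98, 13.1 and 20.5 CPM. Ube2c, the ubiquitin-conjugating enzyme of that complex, had 65.3 and 30.6 against 16.1 and 20.3 CPM in batch 2, and 18.9 and 6.29 against 11.4, 18.2 and 16.0 CPM in batch 1. For Ube2c wildtype replicate 3 was 2.13-fold above wildtype replicate 4. Cenpa, the centromeric histone H3 variant, was at 34.6 and 23.3 against 16.6 and 22.2 CPM in batch 2, so that wildtype replicate 4 exceeded knockout replicate 5 by 1.05-fold. In batch 1 it was at 30.9 and 14.4 against 22.1, 23.5 and 15.6 CPM. Cenpe, a kinetochore motor, had 122 and 75.3 against 29.6 and 52.9 CPM in batch 2. Its batch 1 levels were 41.9 and 20.1 against 26.1, 48.4 and 31.4 CPM, and its log2 fold change there, -0.00 ± 0.38 (SE), was the smallest of the 36.

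Mki67, which coats mitotic chromosomes and encodes the Ki-67 antigen used to stain dividing cells, had 2155 and 1036 CPM (wildtype) against 441 and 708 CPM (knockout) in batch 2, a log2 fold change of -1.48 ± 0.50 (SE). In batch 1 it had 522 and 267 against 316, 511 and 331 CPM. Wildtype replicate 3 lay 2.08-fold above wildtype replicate 4, the next library. Top2a, the topoisomerase that untangles sister chromatids, was at 231 and 192 against 85.9 and 133 CPM in batch 2 and at 111 and 39.4 against 74.1, 117 and 57.6 CPM in batch 1. Hmgb2, a chromatin protein abundant in dividing lymphocytes, had 367 and 342 against 194 and 249 CPM in batch 2, with similar wildtype libraries and a log2 fold change of -0.68 ± 0.15 (SE). In batch 1 Hmgb2 had 225 and 139.9 against 150.2, 196 and 130.4 CPM. Stmn1 (stathmin), which destabilises microtubules, had 41.6 and 43.1 against 25.5 and 32.3 CPM in batch 2 and 27.0 and 18.7 against 17.7, 28.0 and 25.4 CPM in batch 1. Of the 9 members not described singly (Mcm3, Mcm6, Mcm7, Ccnb2, Aurka, Cenpf, Kif11, Tpx2 and Nusap1), all had non-overlapping genotypes in batch 2, with log2 fold changes from -1.46 (Cenpf) to -0.30 (Mcm6).

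**Figure D3:**
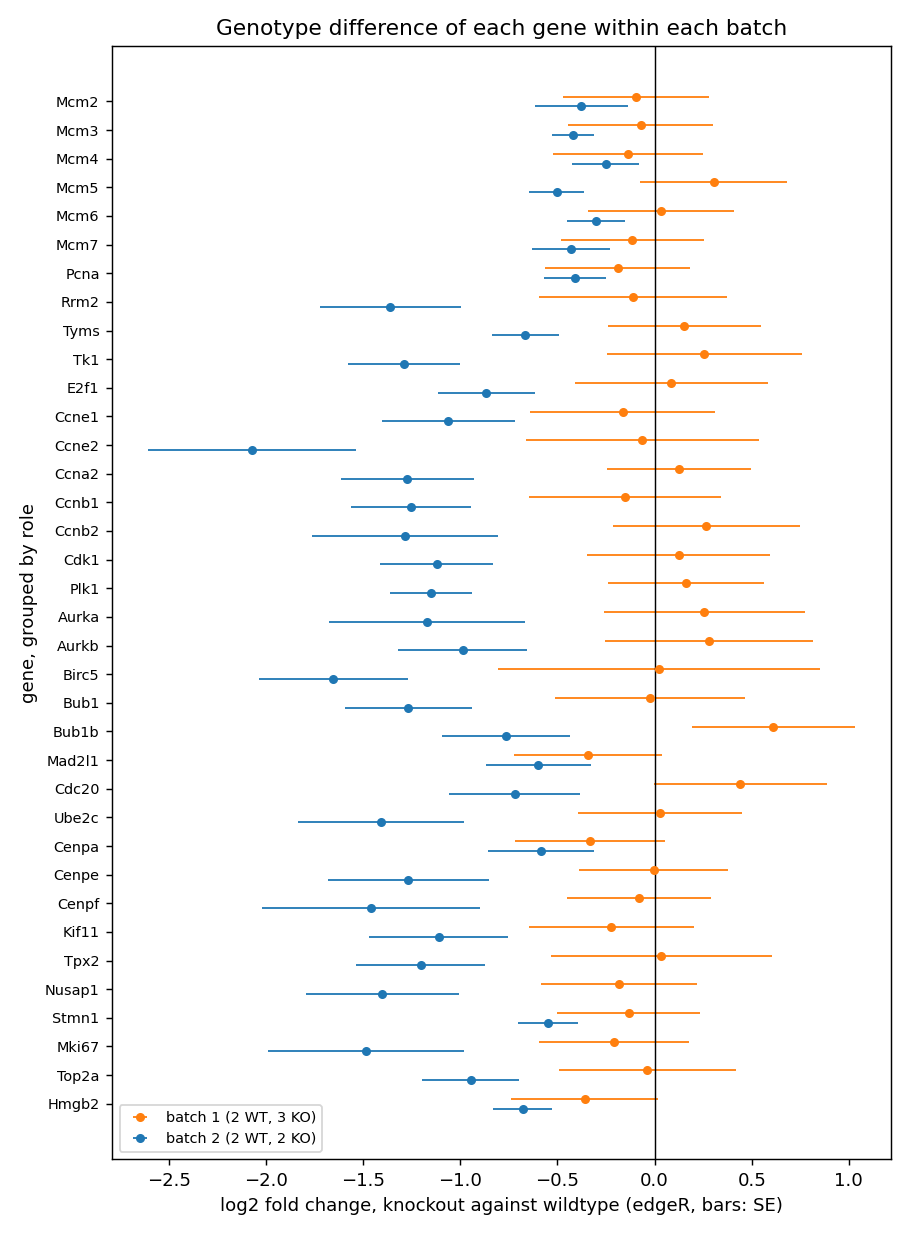
Points are the edgeR log2 fold change of knockout against wildtype for each gene within batch 1 (2 WT, 3 KO libraries) and batch 2 (2 WT, 2 KO), and bars are the SE. All 36 batch 2 points lie below 0, from -2.07 (Ccne2) to -0.25 (Mcm4), while 20 of the batch 1 points do.

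The batch 2 difference was smaller without wildtype replicate 3, the library with the highest erythroid and neutrophil marker sums of batch 2. The median log2 fold change of the members was then -0.69, against -1.09, and 36 of 36 stayed negative. In that fit edgeR called 0 of 36 members (lowest adjusted p = 0.0701, and 0.000219 to 1 over the alternatives run), although it called 1.62% of all genes, and the lone wildtype library was assumed to vary like the knockout libraries. Without wildtype replicate 4 the median was -1.33 and 19 of 36 members passed, all lower, against 5.21% of all genes. There the lone wildtype library, under the same assumption, was the one with the highest erythroid and neutrophil marker sums of batch 2. DESeq2 called 17 of 36 members in batch 2, all lower, against 2.11% of all genes, and limma-voom called 0 (0% of all genes). With no filter on low counts edgeR called 1 member, Plk1, against 0.161% of all genes. Over the members, wildtype replicate 3 exceeded wildtype replicate 4 by a median of 1.47-fold (0.966 for Stmn1 to 2.71 for Ccne2), and wildtype replicate 4 exceeded the higher knockout library by a median of 1.40-fold (0.969 for Mcm2 to 2.13 for Ccne2).

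In batch 1 the members were divided between the directions. Of 36 members 20 had a negative log2 fold change, with a median of -0.03 and a range of -0.36 (Hmgb2) to 0.61 (Bub1b), where 46.2% of the 24600 genes tested were negative and their median was 0.04. edgeR called 0 of 36 members (0.126% of all genes were called), and DESeq2 and limma-voom called 0 (0.13% and 0.0488% of all genes). At an unadjusted p under 0.05 there were also 0 of 36, against 0.63% of genes that were lower and 1.34% that were higher. The knockout libraries lay below the wildtype libraries for 0 of 36 members, against 5.19% of the genes tested. The direction followed the scaling: the median of the members was -0.19 under DESeq2's size factors (all genes -0.08) and 0.10 when scaled by the upper quartile (all genes 0.11).

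The wildtype libraries of batch 1 differed widely from each other. Wildtype replicate 2 was the lowest of the 5 for 26 members, and wildtype replicate 1 was first or second for 9 and 19. Knockout replicate 2 was highest for 22. Wildtype replicate 1 exceeded wildtype replicate 2 by a median of 2.02-fold over the 36 members, by 2.54-fold over the mitotic and by 1.40-fold over the replication genes, and by 4.36-fold for Ccnb2, the second mitotic cyclin B. Without wildtype replicate 1 the median log2 fold change in batch 1 was 0.84, and without wildtype replicate 2 it was -0.53. Without knockout replicate 3, the batch 1 library with Ddx3y transcripts, it was 0.17. Wildtype replicate 2 also had the lowest summed neutrophil (302 CPM against 673 to 1096), monocyte and macrophage (48.5 against 103 to 181) and erythroid (2.44 against 3.16 to 19.2) markers of batch 1, and the fewest total counts. The part of these in the levels was not tested.

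Over both batches, with batch in the model, 35 of 36 members were lower in the knockout, against 48.6% of the 22197 genes tested, and the exception was Bub1b at 0.00. The median was -0.41, against 0.01 for all genes. It was -0.82 with limma-voom, -0.62 without the batch term, -0.80 without wildtype replicate 2 and -0.21 without knockout replicate 4. edgeR called 0 of 36 (0.00451% of all genes were called), DESeq2 and limma-voom called 0 (0.118% and 0.00451% of all genes), and 1 member had an unadjusted p under 0.05, against 1.16% of the genes tested that were lower at that p. That member was Hmgb2, at -0.45 ± 0.19 (SE, edgeR adjusted p = 1). Mki67 had -0.73 ± 0.40, Top2a -0.40 ± 0.38, Cdk1 -0.40 ± 0.38 and Ccne2 -1.0 ± 0.51 (SE, edgeR adjusted p = 1 each). The within-batch medians beside it were -0.03 in batch 1 and -1.09 in batch 2.

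Whether the batches differed in their genotype effect was tested as an interaction, coded as batch 2 minus batch 1. All 36 members had a negative interaction, with a median of -1.37, where 61.9% of the genes tested were negative and their median was -0.19. edgeR called 0 of 36 (0.00451% of all genes were called, lowest adjusted p of a member 0.492), and DESeq2 and limma-voom called 0 (0.758% and 0% of all genes). At an unadjusted p under 0.05 there were 11 of 36 lower, against 6.61% of the genes tested. Tk1 had an interaction of -1.67 ± 0.51, Ccna2 -1.54 ± 0.48, Bub1b -1.52 ± 0.53, Ccne2 -2.18 ± 0.72 and Mki67 -1.42 ± 0.63 (SE, edgeR adjusted p from 0.492 to 0.591). Without wildtype replicate 2 the median was -0.59 and 27 of 36 members were negative, and without wildtype replicate 3 it was -0.77 with 33 of 36. Without wildtype replicate 1 the median was -2.18.

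The batches also differed in level. Wildtype replicate 3 lay above all 5 batch 1 libraries for 35 of 36 members, against 13.2% of the 22197 genes tested over both batches, and both batch 2 wildtype libraries did for 28, against 8.07%. Both batch 2 knockout libraries lay within the range of the batch 1 libraries for 20 members, against 23.2% of those genes. Summed over the 36 genes, the members took 0.107% to 0.195% of all counts in batch 1, 0.481% and 0.302% in the batch 2 wildtype libraries, and 0.163% and 0.222% in the batch 2 knockout libraries. Batch went with depth and receptor background here and, apart from knockout replicate 3, with the levels of Xist and Ddx3y. These cannot be told apart, for the levels or for the interaction.

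Other genes of the same pathway were read from 11 lists of 162 genes that hold none of the members. In batch 2, 136 of the 162 were lower in the knockout, against 52.2% of all genes tested, a share to set beside each list below. The log2 fold changes of the 162 had a median of -0.43. At an unadjusted p under 0.05, 59 were lower, against 4.97% of all genes tested. edgeR called 0, with 0% of all genes called. The lists ran from the mitotic machinery, with differences like those of the members, to lists near the median of all genes. Spindle motors and cytokinesis genes were lower in 20 of 20 (median -1.06), and kinetochore and checkpoint genes in 18 of 18 (median -0.98). The anaphase-promoting complex list had a median of -0.04, with 9 of 14 lower. Between these lay checkpoint and mitotic entry genes (9 of 11 lower, median -0.61) and origin licensing and firing genes (15 of 17, median -0.50). The E2F, MYB and FOXM1 factors (14 of 16, -0.36), nucleotide supply (7 of 9, -0.32), cell cycle inhibitors (9 of 14, -0.32) and polymerases and fork (16 of 18, -0.30) followed. D cyclins and interphase kinases (5 of 9, -0.29) and cohesin and condensin (14 of 16, -0.24) were nearer the median of all genes. In batch 1, 104 of the 161 companion genes tested were lower in the knockout, against 46.2% of all genes tested. The medians of the 11 lists lay there between -0.24 (cohesin and condensin) and 0.09 (D cyclins and interphase kinases). There edgeR called 0 of the 161 genes tested, with 0.126% of all genes called. At an unadjusted p under 0.05, 1 was lower, against 0.63% of all genes tested.

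Within these lists, the regulators of entry into the cycle were of mixed direction in batch 2. Those named here had the smallest batch 2 p in their lists, so their values are a description. Foxm1, the forkhead factor of mitotic promoters, was at 65.8 and 64.1 CPM (wildtype) against 27.8 and 36.8 CPM (knockout), a log2 fold change of -1.0 ± 0.17 (SE), with similar wildtype libraries. E2f2, an activating E2F of lymphocytes, had 248 and 176 against 75.9 and 105 CPM. Ccnd3, the D cyclin of lymphocyte expansion, had 279.5 and 322 against 217 and 229 CPM, whereas Ccnd2, the other D cyclin of T cells, had 619 and 525 against 766 and 701 CPM, a log2 fold change of 0.36 ± 0.14 (SE). Ccnd2 was the 1 companion gene that was higher at an unadjusted p under 0.05, against 2.8% of all genes tested. Among the inhibitors, Cdkn2c (p18INK4c) had 19.1 and 12.2 against 6.11 and 7.32 CPM and the antiproliferative gene Btg2 341 and 283 against 222 and 195 CPM, so the 2 inhibitors with the smallest p were lower as well. None of these passed edgeR's adjustment (adjusted p from 0.618 to 0.630). In batch 1 their log2 fold changes lay between -0.13 (Cdkn2c) and 0.30 (Ccnd3).

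The replication and checkpoint companions named here were chosen for the smallest batch 2 p in their lists, so their values are a description, and each of these 4 lists also held 2 genes with positive values. Pola1 and Pole, catalytic subunits of replicative polymerases, had log2 fold changes of -0.67 ± 0.14 and -0.73 ± 0.15 (SE). Orc6, of the origin recognition complex, had -1.09 ± 0.30, and Mcm10, a replication initiation factor, -1.0 ± 0.35. Rrm1, the large subunit of ribonucleotide reductase, had -0.82 ± 0.28. The phosphatase Cdc25b, which activates Cdk1, had -0.72 ± 0.17, and Clspn (claspin), a fork checkpoint adaptor, -1.16 ± 0.26. In batch 1 the values of these 7 genes lay between -0.29 (Pola1) and 0.27 (Mcm10).

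The mitotic companions were chosen in the same way. Kifc1, a spindle motor, was at 21.8 and 18.9 against 9.94 and 8.42 CPM in batch 2 (log2 fold change -1.15 ± 0.20, SE). Racgap1, of the cytokinetic machinery, had -0.75 ± 0.15, and Incenp, the scaffold of the passenger complex, -0.79 ± 0.16. Espl1 (separase) had -1.17 ± 0.26 and the condensin subunit Ncaph -0.85 ± 0.21. Fbxo5 (EMI1), an inhibitor of the anaphase-promoting complex, had -0.72 ± 0.19, and Cdc16, a subunit of that complex, -0.27 ± 0.12. In batch 1 the log2 fold changes of these mitotic companions lay between -0.37 (Cdc16) and 0.34 (Espl1). The named companions had edgeR adjusted p of 0.618 to 0.669 in batch 2.

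**Figure D4:**
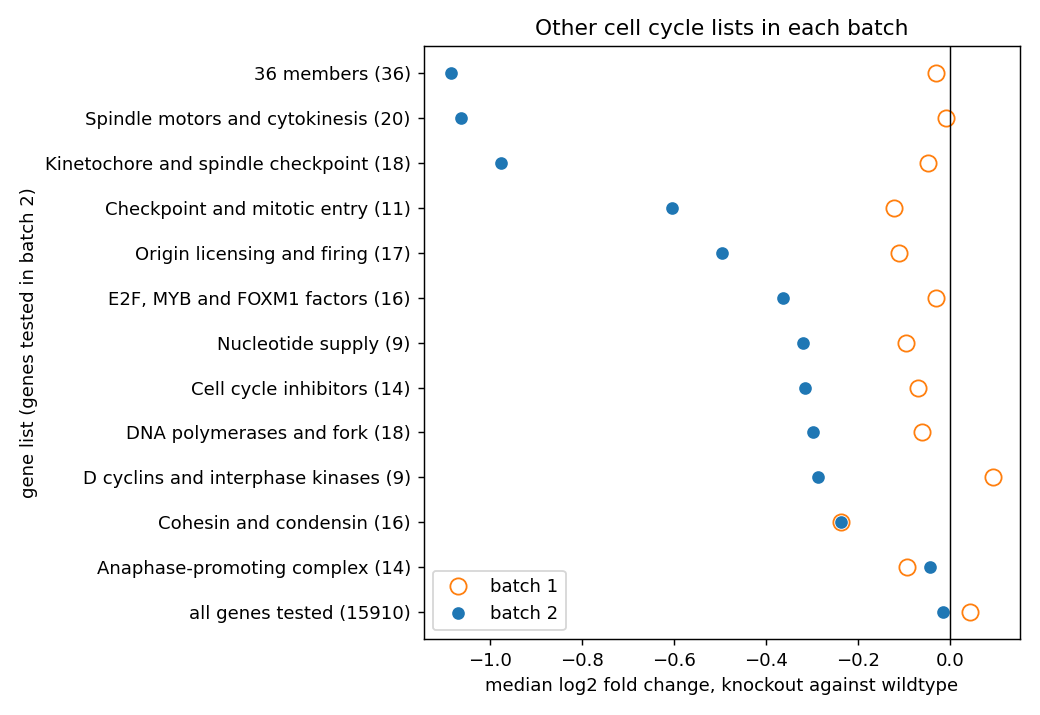
Each row is a gene list with the number of genes tested in batch 2, and the points are the median log2 fold change of knockout against wildtype in batch 1 (open) and batch 2 (filled). In batch 2 the medians run from -1.09 for the 36 members to -0.02 for all genes tested, and in batch 1 all lists lie between -0.24 and 0.09.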

How the data were processed

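Estimated counts per gene for the 9 libraries came in 1 table that the authors deposited. Per the submitters' processing notes, which give no roles, Salmon 1.2.0, R 4.0.3 and GRCm39 were used. Not given in the sources used here: annotation release, strand, length scaling and filters. Deposited values were fractional and were rounded to whole numbers, and reads of near-identical genes are split by estimation. The 36 members and the gene lists were chosen with earlier results of these data known.

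CPM is the rounded count over the library total. edgeR 4.0.16 (R 4.3.3) ran its quasi-likelihood test (robust, TMM-scaled, filtered by genotype at a minimum count of 10 and total of 15) over all genes, within each batch, over both with a batch term, and for the interaction. Benjamini-Hochberg adjustment ran over all genes tested, with a threshold of 0.05. SEs come from the F statistic. Alternatives used DESeq2 1.42.0, limma 3.58.1 (voom), other scalings, no filter, no batch term, a replicate block, a 4-group fit and each library left out. Replicates within a batch all differed by more than counting noise (chi-square per degree of freedom 4.8 to 153). Tested on simulated data for the batch 2 design and 15910 genes, the share of altered genes found was 0% at 1.5-fold, 13.4% at 2-fold and 56.1% at 4-fold. In the same simulation 67, 67 and 66 genes were altered at these sizes, and 18 unaltered genes were called. That is a larger share of the calls than the threshold of 0.05 allows.

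Members in the naming rule were fixed by role, with the extremes of each batch added, and from each list the 2 genes with the smallest batch 2 p are named, except that some genes the rule picks are not reported here. Bub1b's values without single libraries were chosen after its values were seen.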

Additional observations from a re-analysis of the deposited data

Results flagged for a closer look

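A library far from the rest of its genotype was sought in 92 groups (36 members and 10 marker sets in each genotype, both batches together). It was found in 2, where chance, at about 1 in 20, would give about 4.6. E2f1 was at 5.49 CPM in wildtype replicate 1, while the other wildtype libraries lay between 8.12 and 8.35 CPM. The erythroid markers summed to 878 CPM in wildtype replicate 3, and to 2.44 to 33.2 CPM in the other wildtype libraries. Each group pools batches of different level, which can hide or make such a gap.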

How the results depend on the processing

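In batch 2 the median stayed negative, as did all 36 members, under every alternative run. Without the filter edgeR called 34 genes there (1 member, Plk1), DESeq2 329 (17 members), and leaving out each library in turn gave 0 to 879 genes and 0 to 19 members. In batch 1, genes called were 56 with DESeq2 size factors, 6 with upper-quartile scaling, 68 without the filter, 12 with limma-voom, 3 in the 4-group fit and 33 to 118 with a library left out, and the members' median ranged from -0.53 to 0.84. Over both batches, genes called were 2 without the filter, 16 with DESeq2, 0 without the batch term and 0 to 3 with a library left out. For the interaction they were 2 without the filter, 165 with DESeq2, 0 with limma-voom and 1 to 238 with a library left out, with a median of -2.18 to -0.59. Batch 1 Cenpe turned positive at 0.11 (upper-quartile), 0.069 (limma-voom) and 0.13 (4 groups), and ranged from -0.56 to 0.86 with a library left out, as Mki67 did from -0.74 to 0.58. Whether the replicate numbers pair the samples could not be decided. Deviations from the mean of genotype and batch had correlations of 0.354, -0.384, -0.0741 and -0.0608 between same-numbered libraries. With 2 wildtype libraries per batch such deviations mirror each other, and the libraries numbered 3 lie in different batches. With the replicate block the batch 1 fit called 58 genes, with Cenpe at 0.26, Mki67 at 0.094 and a median of 0.25, and the interaction fit called 3 members among 355 of 22197 genes. Over both batches the block gave a median of -0.18, with 27 of 36 members lower. No paired analysis was possible within batch 2 because its genotypes share too few numbers. The cause of these changes was not tested. Batch 1 depth limits the precision of low genes.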
